A study of Mus musculus with 21 samples.

Results

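S phase is the stage of the cell cycle in which a cell copies its DNA. Before it, in G1, the proteins Cdc6 and Cdt1 load the ring-shaped MCM helicase (Mcm2 to Mcm7) onto replication origins. In S phase the helicase is switched on with Cdc45 and the GINS complex. Polymerases, the sliding clamp Pcna and histone chaperones act at the fork, and other enzymes make the DNA precursors. Many of these genes are transcribed in a wave at the G1/S boundary by E2F transcription factors, which the retinoblastoma protein holds back, so their RNA is used as a sign of cells that are entering or passing through S phase.

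The 41 S phase and replication genes described here were chosen by symbol from a list of known S phase genes, and all 41 had a row among the 20284 genes of the table. The RNA came from cells of the back skin of CD1 mouse embryos at embryonic day 15, which had been sorted alive into single wells and made into 9 libraries, each a plate. At that age fibroblasts of the dermis gather into dermal condensates, the clusters that instruct the epidermis to form hair follicles. All groups share strain, age and tissue, and no treatment or genotype is labelled. The name of a well gave its population: 1371 wells were named fibroblast (Fb), 149 DC0, 152 DC1 and 151 DC2, with DC standing for condensate, and the remaining wells were named for spike-in RNAs. The labels do not define DC0, do not tell whether the names follow the sort or a later clustering, and do not tie libraries to animals. The p-values below therefore reflect only how libraries vary, which may be technical.

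A library held 1436924 to 6414137 unique molecular identifiers (UMIs, tags that count RNA molecules) in its cell wells. Libraries 1 to 7 held fibroblasts with 9 to 15 condensate wells each. Library 8 held most of the DC0 and DC2 wells, and library 9 most of the DC1 wells. The median well had 18509 UMIs in Fb, 12773 in DC0, 10469 in DC1 and 8333 in DC2. The populations carried their own markers. The summed level of 10 condensate markers, among them Sox2, Sox18 and Foxd1, had a median of 213 CPM (a gene's UMIs scaled to a common library total) in Fb, 3174 in DC0, 3041 in DC1 and 4255 in DC2. The 10 fibroblast markers, among them Col1a1 and Lum, had medians of 51764, 19016, 13721 and 13838 CPM in the same order. The 8 endothelial markers had medians of 18.9, 14.7, 25.3 and 65.2 CPM, with DC2 libraries from 14 to 350 CPM and 2 of the 8 genes at 0 in DC2. The 8 immune markers had medians of 19.4, 18.2, 9.07 and 21.4 CPM, and the 7 pericyte markers 210, 142, 164 and 250 CPM. The part of these cells in the results was not tested.

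The E2F site was looked for first, because it is the sequence through which most of these genes are known to be switched on. RefSeq promoter windows of build GRCm38.p6, 250 bases before to 50 bases after a start of transcription, were found for 32 of the 41 members. The letters TTTGGCGC, TTTCCCGC, TTTCGCGC or TTTGCCGC, on either strand, stood in at least 1 window of 13 of the 32 members (40.6%), against 2.6% of the 27025 genes in the same set of windows. Forms on opposite strands can overlap, as they do in Mcm5, and a gene was counted once. Stretches upstream of the RefSeq start follow for members of different roles, with the match in capitals. Mcm6 (chr1:128359729-128359768, minus strand, the match beginning 47 bases before the start) and Mcm5 (chr8:75109340-75109379, plus strand) are helicase subunits. Cdc6 (chr11:98907997-98908036, plus strand, 138 bases before) is the helicase loader, and its match reads on the opposite strand. Hells (chr19:38930912-38930951, plus strand, 62 bases before) is a chromatin remodeller. The GENCODE vM21 annotation begins Cdc6 at base 98907801 and Hells at base 38930915. By that annotation the matches of Cdc6 and Hells lie inside the gene and not before it. Casp8ap2 (chr4:32615278-32615317, plus strand, 176 bases before), which acts in histone gene expression, is shown because it carries the same letters as Mcm6 and yet was not lower in DC2 than in DC0 on the plate described later. It was singled out after its values were seen.
Mcm6: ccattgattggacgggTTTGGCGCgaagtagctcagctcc
Mcm5: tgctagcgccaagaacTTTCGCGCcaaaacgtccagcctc
Cdc6: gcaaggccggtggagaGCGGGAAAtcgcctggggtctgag
Hells: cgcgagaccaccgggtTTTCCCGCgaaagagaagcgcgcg
Casp8ap2: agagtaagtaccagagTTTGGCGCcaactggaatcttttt

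The same letters were looked for in other lists. They stood in 19 of 60 other replication genes (31.7%), in 8 of 17 regulators of the G1/S step (47.1%) and in 3 of 49 genes of G2 and mitosis (6.12%). The letters TTTGAA, the core of the element known from genes of G2 and mitosis, stood in 18.8% of members, in 69.4% of the G2 and mitosis genes and in 20.2% of all genes. The box CCAAT stood in 71.9% of members, in 77.6% of the G2 and mitosis genes and in 41.1% of all genes. These are matches of letters in a window and not measured binding sites.

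The members made up a small and steady share of fibroblast RNA. In Fb wells they took 0.388% ± 0.0153 of gene UMIs (SD, n = 7 libraries), with libraries between 0.36% and 0.403%. In DC0 the share was 0.317% ± 0.193 (n = 8), from 0.11% to 0.704%. In DC1 it was 0.267% ± 0.154 (n = 8), from 0.153% to 0.601%. In DC2 it was 0.147% ± 0.0379 (n = 8), from 0.102% to 0.21%. Every DC2 library therefore lay below every Fb library, as did 6 of 8 DC0 and 7 of 8 DC1 libraries, while DC0 and DC1 overlapped each other and DC2. The highest DC2 value, in library 1, rested on 6 member UMIs of 2855, and that of library 6 on 18 of 10736. Counting error is wide in such sums, so library 1 alone does not place DC2 below Fb. No p-value is given for the summed share, since the members were chosen with earlier results known.

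**Figure D1:**
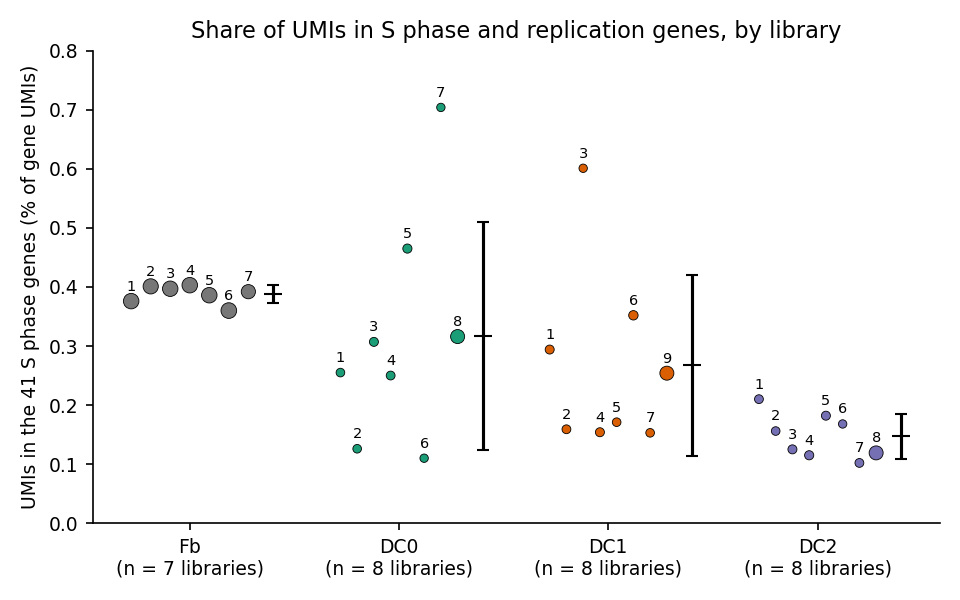
UMIs in the 41 S phase and replication genes as a percentage of all gene UMIs (vertical axis), 1 point for each library and population, numbered by library, larger for more wells; the black bar is mean ± SD. Fb libraries sit between 0.36% and 0.403%, all 8 DC2 libraries at or below 0.21%, and DC0 and DC1 spread from 0.11% to 0.704%.

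In DC0 and DC1 the highest shares rested on few wells. The highest DC0 value, in library 7, came from 2 wells, and 1 of them held 98.2% of the member UMIs and 93.5% of all UMIs. The highest DC1 value, in library 3, also came from 2 wells, and 1 of them held 94.6% of the member UMIs and 57.5% of all UMIs. The plates with many wells were closer to the middle of their groups, at 0.316% for DC0 in library 8 and 0.254% for DC1 in library 9, and DC2 in library 8 stood at 0.119%. Wells named for spike-ins held 218 member UMIs of 72455, a median of 0.295% over 9 libraries.

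The level of each gene was then compared over libraries. UMIs come from 3′ ends of RNA and need no scaling by gene length. Gene by gene, the condensate wells of a library (DC0, DC1 and DC2 together) were set against its Fb wells, in libraries 1 to 6, each of which had 10 or more of either kind. Of the 40 members tested, 18 were lower in condensate wells and 0 higher at adjusted p under 0.05 (quasi-likelihood test of edgeR, blocked by library, Benjamini-Hochberg over all genes). Over all 9640 genes tested, 13.2% were lower and 10.4% higher. The median log2 fold change was -0.64 for members and -0.03 for all genes. The count depended on depth and libraries: 11 of 41 were lower in the 3 libraries of a shared sequencing run, where 9.71% of all genes were, and 4 of 30 with wells thinned to 3000 UMIs, where 7.47% were. The count was 12 to 19 when 1 library was left out.

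Of the helicase subunits, Mcm3, Mcm5 and Mcm6 fell in condensate wells and Mcm2, Mcm4 and Mcm7 did not pass the test. Mcm5 stood at 127, 135, 158, 143, 145 and 148 CPM in the Fb wells of libraries 1 to 6. In the condensate wells of the same libraries it stood at 99.7, 70.4, 71.5, 74.2, 94.6 and 107.3 CPM. The groups did not overlap, and the log2 fold change was -0.81 (SE 0.187, adjusted p = 0.001). Mcm3 fell by 0.66 on the log2 scale (SE 0.197, adjusted p = 0.0105) and Mcm6 by 0.52 (SE 0.158, adjusted p = 0.0123), each lower in 6 of 6 libraries with overlapping groups. The log2 fold changes of the others were -0.20 for Mcm2, -0.49 for Mcm4 and -0.18 for Mcm7, with adjusted p of 0.538, 0.0576 and 0.558. The 6 proteins form a ring in equal parts, but their RNAs did not move by equal amounts here, and no difference between subunits was tested.

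Of the 5 genes of origin licensing and firing, Gins2 and Cdt1 fell. Gins2, a GINS subunit needed to switch the helicase on, ranged from 67.4 to 87.6 CPM in Fb of libraries 1 to 6. In condensate wells it was listed at 0 in libraries 1 and 4 and stood at 17.6, 41.4, 36.8 and 32.7 CPM in libraries 2, 3, 5 and 6. The groups did not overlap, the log2 fold change was -1.65 (SE 0.309, adjusted p = 6.11e-05), and the sums behind the condensate values held 0 to 14 UMIs. Cdt1, which loads the helicase, fell by 0.95 on the log2 scale (SE 0.266, adjusted p = 0.00677), with 6 of 6 libraries lower. Cdc6 (log2 fold change -1.16, adjusted p = 0.0685), Cdc45 and the Cdt1 inhibitor Gmnn did not pass the test.

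At the fork, Pcna and Rpa2 fell, and 5 of 7 genes of this role did not pass. Pcna, the clamp that tethers the polymerases and the most abundant member, stood at 546, 636, 591, 567, 572 and 484 CPM in Fb of libraries 1 to 6. In condensate wells it stood at 388, 211, 482, 163.2, 412 and 397 CPM. Each condensate value lay below the lowest Fb value, and the log2 fold change was -0.77 (SE 0.157, adjusted p = 0.000192). Rpa2, a subunit of the complex that coats single-stranded DNA, fell by 0.93 on the log2 scale (SE 0.234, adjusted p = 0.00238), without overlap of the groups.

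The remaining calls lay in precursor supply, control, repair and histone genes. Rrm1, the large subunit of ribonucleotide reductase, fell by 0.55 on the log2 scale (adjusted p = 0.0242), and Tyms, the enzyme that makes thymidylate, by 1.02 on that scale (adjusted p = 0.0231). Dtl, an adaptor of the ligase that destroys Cdt1 in S phase, fell by 0.99 on the log2 scale (adjusted p = 0.000738). E2f8, a repressor that ends the E2F wave, fell by 1.51 on that scale (adjusted p = 0.00911), without overlap of the groups. Usp1, which takes ubiquitin off Pcna, fell by 0.91 (adjusted p = 0.00118). Ung, which removes uracil from DNA, fell by 1.44 (adjusted p = 0.00434). Slbp, the protein that binds the stem-loop of histone messages, fell by 0.70 (adjusted p = 0.00449). The 6 called members of highest adjusted p, Rrm1 and Tyms among them, had log2 fold changes from -1.02 to -0.55 with adjusted p from 0.0231 to 0.0486. The 22 members not called ran from -1.16 to 0.13, and the helicase of DNA repair Brip1 was the only member above 0. Ccne2, a cyclin of the G1/S boundary, had too few UMIs to be tested. A pseudogene row, Tyms-ps, held 24 UMIs beside 1831 for Tyms, so reads of Tyms may be split between them and its value is uncertain.

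The 3 condensate names were then set apart in 1 fit over libraries 1 to 8, with a sum for each population that had at least 2 wells in a library. Libraries 1 to 7 held all 4 populations and library 8 only DC0 and DC2, so comparisons with Fb rest on 7 libraries. Only 10 members passed its filter on low counts: Mcm3, Mcm5, Mcm6, Mcm7, Pcna, Rrm1, Rrm2, Slbp, Nasp and Usp1. The filter asks for a minimum level in enough sums, whatever their population. Mcm3, at a mean of 119 CPM in Fb, passed with the help of high DC0 and DC1 sums. Mcm4, at a mean of 121 CPM in Fb, did not pass. The 10 are thus not simply the members highest in Fb, and their counts say nothing of the other 31.

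Against Fb, these members were low in DC2 and much less so in DC0. All 10 members that passed the filter fell in DC2 against Fb, 8 fell in DC2 against DC0, and 0 were called in DC0 against Fb. In DC2 against Fb, 25% of 2069 genes tested were lower and 19.8% higher, and the median log2 fold change was -1.65 for the 10 members and -0.08 for all genes. In DC0 against Fb, where 14.8% of genes were lower and 11.7% higher, the 10 members ran from -0.70 to 0.21. None of the 10 had an unadjusted p under 0.05 in that comparison, and DESeq2 called 0. The count of such p-values depended on libraries and filter. Outside the shared run 2 of 5 members tested had one, and within it 0 of 14. With no filter 14 of 41 had one, with a median log2 fold change of -0.480 for members and -0.518 for all genes. The share of all genes with an unadjusted p under 0.05 was not counted. Counted by library, 35 of 41 members were lower in DC0 than in Fb in most of the 7. The same count was not made over all genes. These DC0 sums held 20707 to 191382 UMIs, so a gene of low level often stood at 0 in them. The count of 35 therefore cannot show a fall particular to the members. In DC1 against Fb, where 16.4% were lower and 16.2% higher, Mcm5 (log2 fold change -1.01, adjusted p = 0.0251) and Usp1 (-0.90, adjusted p = 0.0413) fell. Both calls were lost when library 2 or library 4 was left out, in the libraries of the shared run, and with at least 5 wells in each sum.

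**Figure D2:**
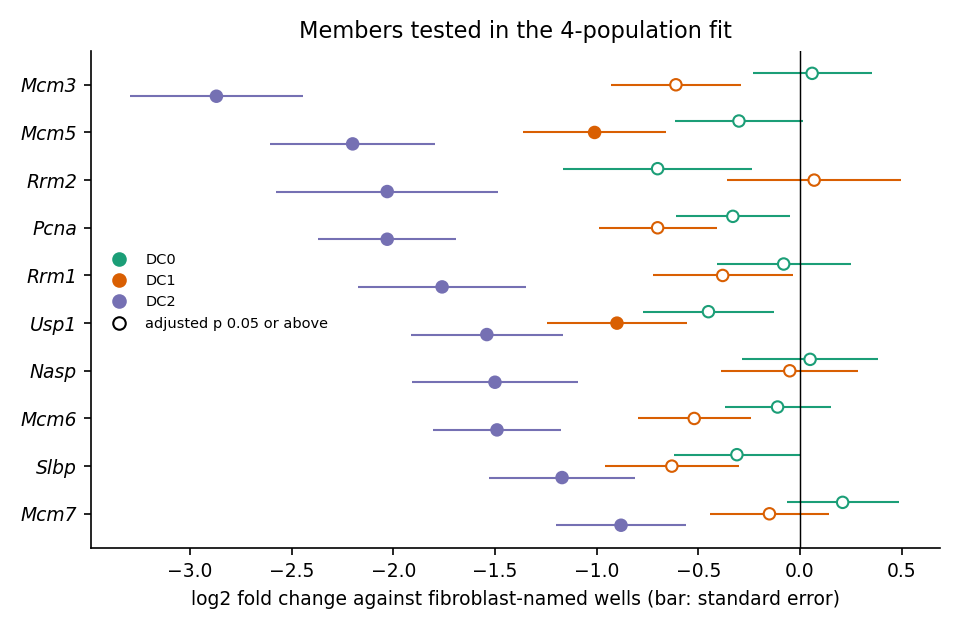
Log2 fold change against fibroblast-named wells (horizontal axis) of the 10 members that passed the filter, for DC0, DC1 and DC2; bars are standard errors, filled points have adjusted p under 0.05. All 10 DC2 points lie between -2.87 and -0.88, while DC0 points lie between -0.70 and 0.21 and none is filled.

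The comparison of DC2 with DC0 tests the step directly, within libraries that held both. There 9.18% of genes were lower and 8.41% higher, and the median log2 fold change was -1.46 for the 10 members against -0.04 for all genes. The 8 calls became 4 without library 5 and 5 without library 8. Mcm3 stood at 160, 48.3, 112, 169, 120, 99.9, 262 and 80.7 CPM in the DC0 wells of libraries 1 to 8. In DC2 it was listed at 0 in libraries 1, 2, 5, 6 and 7, and stood at 25.6, 41.9 and 15.5 CPM in libraries 3, 4 and 8. In DC2 of libraries 1, 2 and 6, 1 UMI is worth 350, 62.5 and 93.1 CPM. That is above the lowest DC0 value, itself 1 UMI, so a 0 in these libraries cannot show a lower level. No DC2 value reached the lowest DC0 value, and the log2 fold change was -2.93 (SE 0.424, adjusted p = 4.92e-06). Mcm3 passed the filter partly through its DC0 and DC1 sums, so a fall in DC2 was favoured by that choice. In DC1 of libraries 1 to 7 it stood at 64.2, 49.7, 142, 19.4, 48.1, 128 and 92 CPM, and Mcm3 also fell in DC2 against DC1 (log2 fold change -2.26, adjusted p = 0.0146), a call lost with at least 5 wells in each sum.

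Pcna was also lower in DC2 than in DC0, with overlap. In DC0 of libraries 1 to 8 it stood at 479, 145, 533, 337, 658, 50, 1109 and 403 CPM. In DC2 of the same libraries it was listed at 0 in library 1 and stood at 250, 248, 62.8, 122.5, 186, 208 and 130 CPM in the others. It was lower in DC2 in 6 of 8 libraries, with a log2 fold change of -1.70 (SE 0.337, adjusted p = 0.00043). Against Fb, DC2 wells were lower in 7 of 7 libraries without overlap (-2.03, SE 0.34, adjusted p = 8.28e-06). Library 1 held 2855 UMIs in its 4 DC2 wells, where 1 UMI is worth 350 CPM, so that a value of 0 there allows up to 3 UMIs.

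Among the other subunits of the helicase, Mcm5 had log2 fold changes of -2.20 in DC2 against Fb (adjusted p = 3.44e-05) and -1.91 against DC0 (adjusted p = 0.00136). Mcm6 had -1.49 (adjusted p = 0.000216) and -1.37 (adjusted p = 0.00248). Mcm7 had the smallest change of the 10 against Fb, -0.88 (adjusted p = 0.0243), and -1.09 against DC0 (adjusted p = 0.0158). Its call against Fb was lost by DESeq2, without library 2, 3, 4 or 8, and in the shared run. Mcm2 and Mcm4 did not pass the filter. Mcm4 averaged 121 ± 19.5 CPM in Fb (SD, n = 7) and 25 ± 25.5 in DC2 of libraries 1 to 7, without overlap. Its 0 in DC2 of library 1 has the limit given for Pcna. Mcm2 averaged 97.1 ± 11.5 and 48.1 ± 65.6 CPM, with 1 DC2 library, the fourth, at 188 CPM from 9 UMIs.

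Rrm1 and Rrm2 are the large and small subunits of ribonucleotide reductase, which makes DNA precursors. Rrm1 fell in DC2 against Fb (log2 fold change -1.76, adjusted p = 0.000711) and against DC0 (-1.68, adjusted p = 0.00416). Rrm2 fell against Fb (-2.03, adjusted p = 0.00271) and did not pass against DC0 (-1.32, adjusted p = 0.101). Nasp, a chaperone of histone H3 and H4 proteins, had log2 fold changes of -1.50 against Fb (adjusted p = 0.00294) and -1.55 against DC0 (adjusted p = 0.00686). Slbp had -1.17 against Fb (adjusted p = 0.00828) and -0.86 against DC0 (adjusted p = 0.105). Usp1 had -1.54 (adjusted p = 0.00104) and -1.09 (adjusted p = 0.0474), and the second call was lost under 9 of 14 alternatives.

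The step from DC1 to DC2 was less resolved. Mcm3 was the only one of 10 members called, where 1.30% of genes were lower and 1.16% higher. Its place among the 10 rested partly on its DC0 and DC1 sums. The 10 log2 fold changes ran from -2.26 to -0.54 with a median of -1.26, and 7 had an unadjusted p under 0.05. The share of all genes with such an unadjusted p was not counted, so the 7 have no background here. From DC0 to DC1, where 0.193% of genes were lower and 0.967% higher, 0 members were called, 0 had an unadjusted p under 0.05 and DESeq2 called 0, with log2 fold changes from -0.71 to 0.78.

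More members could be read when the sums were larger or unfiltered. With at least 5 wells in each sum, which left 6 libraries, 31 members were tested, and 26 were lower in DC2 against Fb and 24 against DC0, beside 13.4% and 4.99% of all 5214 genes tested. With no filter, 37 of 41 were lower in DC2 against Fb and 29 of 41 against DC0, beside 11.9% and 1.89% of all 18809 genes. Without a filter the median of all genes moved to -0.55 in DC2 against Fb, and that of the members was -2.33. By role, with at least 5 wells, all 6 helicase subunits, all 4 tested genes of licensing and firing, both tested control genes and all 3 genes of precursor supply fell in DC2 against DC0. So did 4 of 6 genes at the fork, 3 of 6 histone and chromatin genes and 2 of 4 repair and checkpoint genes. The 7 members not called there were Brip1, Casp8ap2, Fen1, Rfc2, Slbp, Ubr7 and Usp1, named after their values were seen.

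Library 8 gives the same step on 1 plate. With 1 sum for each population there is no test, and intervals cover counting error only. The members held 4664 of the DC0 UMIs (3161 CPM) and 1613 of the DC2 UMIs (1187 CPM), a ratio of 2.66 (95% interval 2.52 to 2.82). Of 40 members with at least 10 UMIs, 33 were at least 2-fold higher in DC0 and 0 at least 2-fold lower. Over 11020 genes with as many UMIs, 8.70% were at least 2-fold higher in DC0, and the median ratio was 0.921 for all genes and 3.21 for the members.

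**Figure D3:**
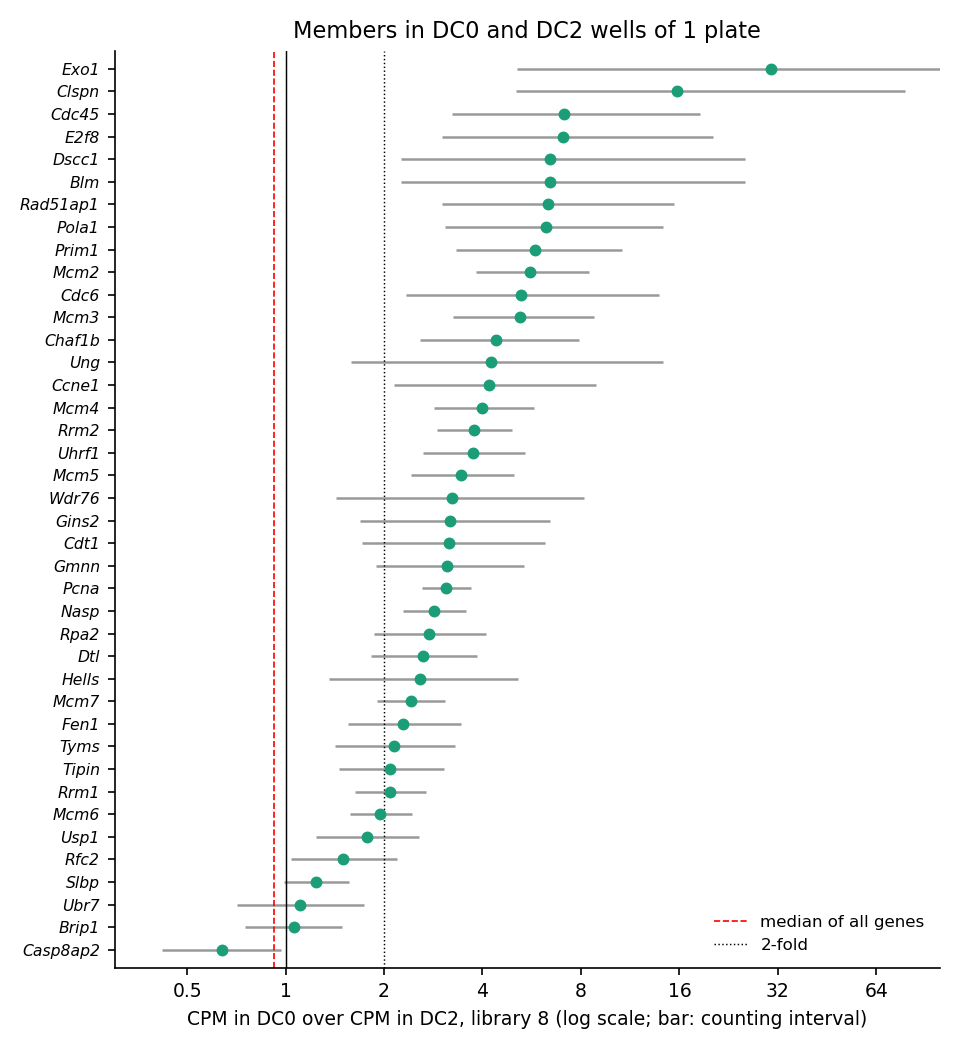
Ratio of CPM in DC0 to CPM in DC2 wells of library 8 (horizontal axis, log scale) for the 40 members with at least 10 UMIs, with 95% counting intervals; that of Exo1 runs past the right edge. Most members lie right of the dotted 2-fold line, and Casp8ap2 at 0.64 is the member left of 1.

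High ratios were found from the helicase to the first steps of synthesis. Mcm2 held 188 UMIs in DC0 and 31 in DC2, a ratio of 5.59 (3.81 to 8.46). Mcm3 held 119 and 21, a ratio of 5.22 (3.26 to 8.74). Prim1, the subunit of primase that makes RNA primers, held 94 and 15, a ratio of 5.77 (3.33 to 10.7), and Pola1, the polymerase that extends them, 61 and 9, a ratio of 6.24 (3.08 to 14.3). Cdc45 held 54 and 7, a ratio of 7.11 (3.22 to 18.5). Exo1, a nuclease of mismatch repair, held 33 and 1, a ratio of 30.4 (5.09 to 1237). Clspn, which relays the replication checkpoint, held 51 and 3, a ratio of 15.7 (5.07 to 78.5). Mcm4, Mcm5, Mcm7 and Mcm6 had ratios of 3.99, 3.43, 2.41 and 1.95, so that the 6 subunits spanned a range of ratios on 1 plate as they did over libraries.

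Not all members were higher in DC0 on that plate. Slbp had a ratio of 1.24 (0.992 to 1.56). Brip1 had a ratio of 1.06 (0.753 to 1.49) and Ubr7, a ubiquitin ligase, 1.11 (0.711 to 1.74). The intervals of these include 1, while Casp8ap2 held 41 and 59 UMIs, a ratio of 0.64 (0.419 to 0.97) whose interval lies below 1. Ccne2 held 0 and 2 UMIs and allows no ratio. The DC1 wells of library 9, another plate, held 3645 member UMIs (2537 CPM), a level set across plates and not compared.

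In a sum, fewer wells with S phase RNA and less of that RNA in each well cannot be told apart, so wells were counted after each was thinned to 3000 UMIs. A well with at least 10 member UMIs of 3000 is called S-high here; this is a range of a continuous score, and 18% of Fb wells lay within 2 UMIs of the threshold. In Fb, 489 of 1155 wells were S-high (42.3%, 95% interval 39.5 to 45.2), and the 7 libraries ran from 38.8% to 47.8%. In library 8, 24 of 94 DC0 wells (25.5%, 17.1 to 35.6) and 3 of 65 DC2 wells (4.62%, 0.962 to 12.9) were S-high. In library 9 it was 22 of 114 DC1 wells (19.3%, 12.5 to 27.7). The few condensate wells of libraries 1 to 7 gave 7 of 21 for DC0 (33.3%, and 20% without library 5), 3 of 25 for DC1 (12%) and 1 of 22 for DC2 (4.55%, and 0% without library 5), with wide intervals.

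**Figure D4:**
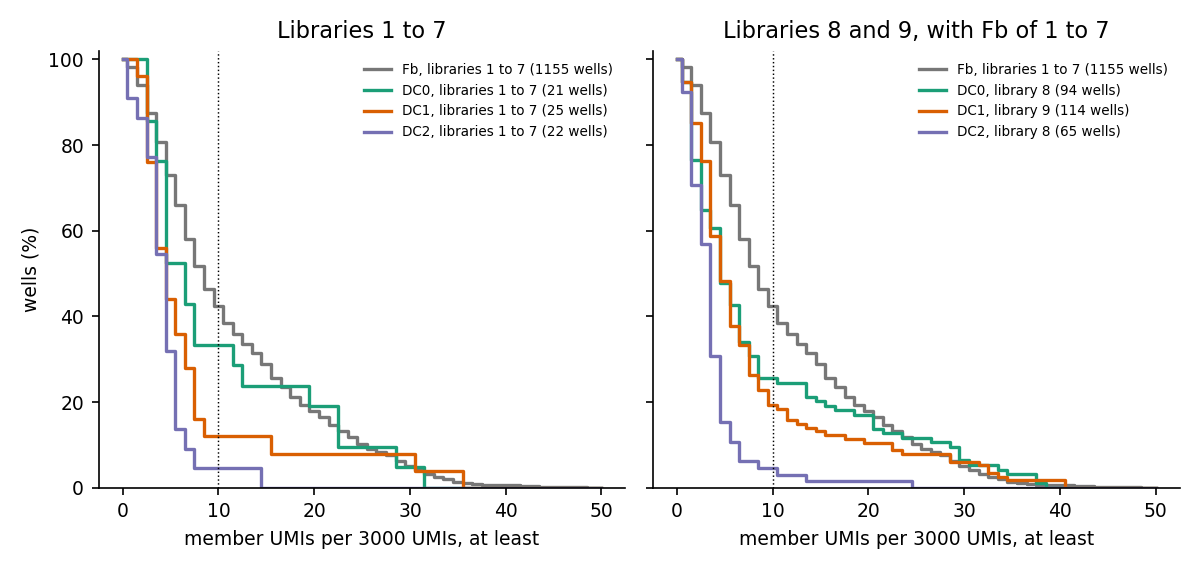
Percentage of wells (vertical axis) with at least the given number of member UMIs among 3000 (horizontal axis), for libraries 1 to 7 (left) and for libraries 8 and 9 beside the same Fb wells (right); the dotted line marks 10. The DC2 curves drop first, to 4.55% and 4.62% at 10, and the Fb curve stands at 42.3%.

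Within S-high wells the level was read next. The median was 18 member UMIs of 3000 in Fb, 22 in DC0 of library 8 and 22 in DC1 of library 9, and S-low wells had medians of 5, 3 and 3. The 3 S-high DC2 wells of library 8 had a median of 13, and the highest held 24. Before thinning, 94% of the same Fb wells and 63.1% of the same library 8 DC2 wells had 10 or more member UMIs. Their median totals were 22660 and 13849 UMIs, and members made up 0.386% and 0.116% of their UMIs. After thinning, member UMIs still had a Spearman correlation of 0.139 with the original depth over Fb wells and of -0.0231 over DC2 wells of library 8. Shallower wells were left out: 216 of Fb, and 30 of DC0 and 57 of DC2 in library 8. In these the members made up 0.219% of UMIs in DC0 and 0.208% in DC2, so that the contrast between DC0 and DC2 was seen in the deeper wells.

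S-high wells were compared with the G2 and mitosis genes by the same threshold. In Fb, 15.7% of wells were high for members alone, 26.7% for both sets, 22% for G2 and mitosis genes alone and 35.7% for neither. In DC0 of library 8 neither set was high in 62.8% of wells (52.2 to 72.5), in DC1 of library 9 in 65.8% (56.3 to 74.4) and in DC2 of library 8 in 90.8% (81 to 96.5). Wells high for members alone were 3.19% of DC0, 7.02% of DC1 and 1.54% of DC2 wells on those plates. None of the spike-in wells reached 10 member UMIs, at a median of 431 UMIs a well.

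Genes outside the members were read in S-high and S-low wells as well. Cdkn1a, the inhibitor p21 that blocks cyclin-dependent kinases, had a UMI in 7 of 24 S-high DC0 wells of library 8 (29.2%, 12.6 to 51.1) and in 45 of 70 S-low wells (64.3%, 51.9 to 75.4). In DC0 of libraries 1 to 7 it had one in 4 of 7 S-high and 12 of 14 S-low wells, and in Fb in 15.5% of S-high and 9.76% of S-low wells. In DC1 of library 9 the shares were 77.3% of S-high and 67.4% of S-low wells, the other way round from DC0, while its mean level was 0.909 and 1.82 UMIs of 3000. Cdkn1c, the inhibitor p57, averaged 1.38 UMIs of 3000 in S-high and 7.09 in S-low DC0 wells, and 1.64 and 7.4 in DC1 wells of library 9. In DC0 of libraries 1 to 7 it averaged 6 in 7 S-high and 14.5 in 14 S-low wells, with a UMI in 100% and 78.6% of them. In DC1 of libraries 1 to 7 the averages went the other way, 10 in 3 S-high and 5.64 in 22 S-low wells. In Fb they were 4.14 and 5.97. Plk2, a kinase induced by p53, had a UMI in 33.3% of S-high and 32.9% of S-low DC0 wells of library 8. Ccnd1, cyclin D1, averaged 3.71 and 3.7 in DC0. The condensate genes Foxd1 and Sox18 had a UMI in 70.8% and 33.3% of S-high DC0 wells and in 64.3% and 37.1% of S-low ones, beside 1.35% and 1.05% of S-low Fb wells. Other genes were less even in DC0 of library 8. Sox2 had a UMI in 8.33% of S-high and 24.3% of S-low wells, and Cxcr4 in 20.8% and 10%. These shares describe wells of single plates and were not tested.

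Across the Fb wells the members correlated with each other to different degrees. The Spearman correlation of a gene with the summed UMIs of the other 40 members was 0.595 for Pcna, 0.474 for Rrm2, 0.435 for Slbp and 0.405 for Mcm6, and lowest for Ubr7 (0.0848). The closest pairs among 820 were Pcna with Slbp (0.351), Mcm6 with Pcna (0.343), Pcna with Rrm2 (0.335), Rrm2 with Slbp (0.311) and Mcm5 with Pcna (0.278). The wells share plates and depth, and the correlation rose with a gene's level (Spearman 0.771 with mean CPM over 40 members), so a low value can mean few UMIs. The ratio of DC0 to DC2 in library 8 did not follow it (Spearman -0.0246 over the same 40).

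The members also differed in how they went with the genes of G2 and mitosis. Rrm1 (0.328) and Rrm2 (0.323) were the members most tied to the summed G2 and mitosis genes over Fb wells. Mcm2 (-0.0778), Mcm4 (-0.0761), Ung (-0.072) and Mcm6 (-0.0375) lay at or below 0. All are single correlations over the same wells, given as a description.

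**Figure D5:**
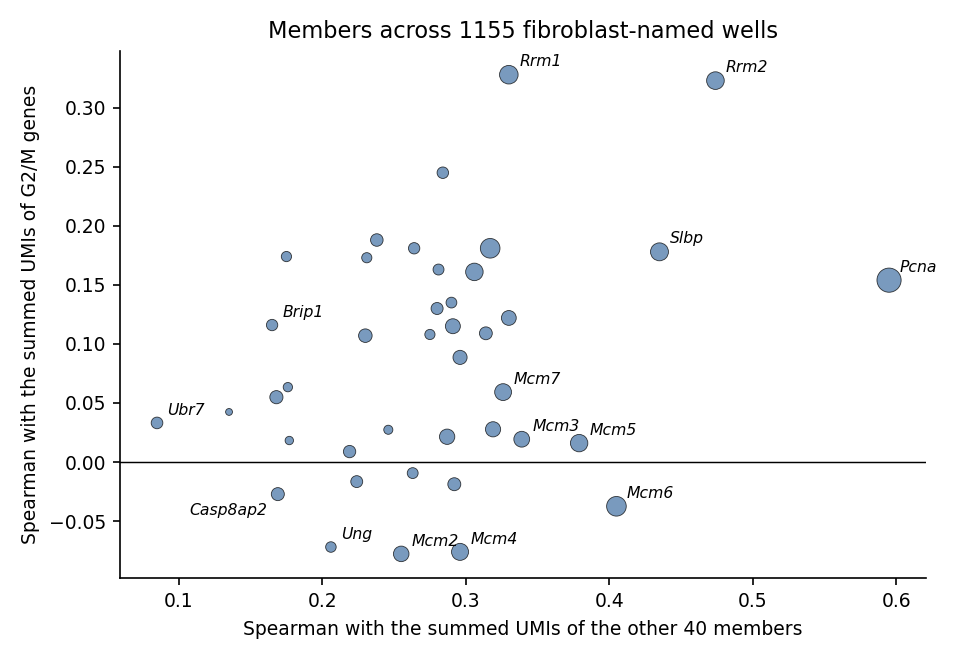
Each point is a member, placed by its Spearman correlation over 1155 Fb wells with the summed UMIs of the other 40 members (horizontal axis) and of the G2 and mitosis genes (vertical axis); larger points were found in more wells. Pcna is farthest right at 0.595, Rrm1 and Rrm2 are highest at 0.328 and 0.323, and Mcm2 and Mcm4 lie below 0.

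The genes outside the list that moved most like the members in Fb wells were sought among 4721 genes with a UMI in at least 10% of the wells. Among the closest 10 were Tk1 (0.386), Lig1 (0.384), Tcf19 (0.382), Atad2 (0.38), Top2a (0.332), Dnmt1 (0.321), Fam111a (0.308), Topbp1 (0.305) and Tubb5 (0.301). Tk1 makes a precursor of DNA, Lig1 seals the lagging strand, and Dnmt1 copies DNA methylation. The summed other replication genes had a Spearman correlation with the members of 0.733 in Fb, 0.72 in DC0 of library 8 and 0.0978 in DC2 of library 8, where most counts were low.

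Other genes of the pathway were read from the same fits. Of 72 other replication genes, 14 of 69 tested were lower in condensate wells and 1 higher, with a median of -0.50, and in DC2 against Fb 8 of 9 tested were lower. Over all genes tested, 13.2% were lower and 10.4% higher in condensate wells, and 25% were lower in DC2 against Fb. Lig1 fell by 2.39 on the log2 scale in DC2 against Fb (adjusted p = 1.92e-05), and Tk1 had a log2 fold change of -2.83 (adjusted p = 0.000149). The gene higher in condensate wells was Rrm2b (log2 fold change 1.32, adjusted p = 0.0473), a small subunit of ribonucleotide reductase that is known to be used outside S phase. Its level was 14.3 ± 4.98 CPM in condensate wells and 5.01 ± 0.953 in Fb (SD, n = 6), and Rrm2 had a log2 fold change of -0.30 (adjusted p = 0.368) in the same comparison.

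Of the G1/S regulators, 4 of 21 tested were lower and 3 higher in condensate wells. Over all genes tested there, 13.2% were lower and 10.4% higher, so the list is not set apart by its counts. Rb1, the retinoblastoma gene, rose from 9.13 ± 2.3 CPM in Fb to 68 ± 28.4 CPM (SD, n = 6, log2 fold change 2.77, SE 0.336, adjusted p = 1.54e-08). Ccnd1 rose by 1.07 on the log2 scale (adjusted p = 4.92e-08), and Tfdp2, a partner of E2F proteins, by 1.49 (adjusted p = 0.000142). Ccna2, cyclin A2, had a log2 fold change of -1.33 (adjusted p = 5.23e-05), and the repressor E2f7 of -1.44 (adjusted p = 0.00306). By stage, Ccnd1 rose in DC0 against Fb (1.56, adjusted p = 4.36e-07) and in DC1 (0.99, adjusted p = 0.000453), and it fell in DC2 against DC0 (-2.02, adjusted p = 2.33e-07).

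Of the cell cycle inhibitors, 8 of 15 tested were higher and 3 lower in condensate wells, beside 10.4% and 13.2% of all genes tested. Cdkn1a rose by 4.06 on the log2 scale in DC0 against Fb (adjusted p = 4.88e-10), by 3.23 in DC1 (adjusted p = 7.74e-08) and by 2.79 in DC2 (adjusted p = 2.23e-06). In DC0, where Cdkn1a was high, 0 of the 10 members tested were called, which does not show that the members were unchanged there. Timing was not tested. Plk2 rose by 3.19, 3.83 and 3.93 in the same order.

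Genes of G2 and mitosis were read in the same way. In condensate wells 34 of 55 tested were lower and 1 higher, beside 13.2% and 10.4% of all genes tested, with a median of -0.90. In DC0 against Fb 6 of 22 tested were lower, among them Ube2c (log2 fold change -1.80, adjusted p = 0.00747), against 0 of 10 members and 14.8% of all genes tested. In DC2 against Fb 21 of 22 were lower, beside 25% of all genes tested. In DC2 against DC0 2 of 22 were lower, against 8 of 10 members and 9.18% of all genes tested. The median log2 fold change of the 22 was -0.81 in DC0 against Fb and -0.87 in DC2 against DC0. That of the 10 members was -0.21 and -1.46 in the same order. Top2a and Cks1b stand in more than 1 list. Whether the lists differ from each other was not tested, and these comparisons share their samples.

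Positions of the helicase genes and Pcna close the account. In GENCODE vM21 on build GRCm38, Mcm2 lies on chromosome 6 (88883474 to 88898780), Mcm3 on chromosome 1 (20802968 to 20820312) and Mcm4 on chromosome 16 (15623897 to 15637400), all on the minus strand. Mcm5 lies on chromosome 8 (75109569 to 75128439, plus strand), Mcm6 on chromosome 1 (128331590 to 128359664, minus strand) and Mcm7 on chromosome 5 (138164583 to 138172422, minus strand). Pcna lies on chromosome 2 (132249162 to 132253314, minus strand). The values of each gene sum all its transcripts.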

How the data were processed

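The deposited values are expected counts: per the values themselves, each is a number of distinct UMIs corrected for chance collisions in a space of 4096, and of 7480233 non-zero entries 0 lay over 0.005 away from the values this predicts. Per the labels' protocols the libraries were made by SORT-seq, a plate form of CEL-Seq2. The submitters' processing notes list BWA 0.6.2-r126 beside Cufflinks 2.1.1, TopHat2 2.0.3 and Bowtie2, and name build mm10. They do not say which tool served which of the data sets. Values were rounded to whole UMIs (13.5% of values above 0 were not whole), although whole counts had been assumed in the design.

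Wells were summed by library and population, and sums were tested with edgeR 4.0.16 (TMM, filterByExpr, glmQLFit, glmQLFTest, library as block, Benjamini-Hochberg, threshold 0.05) in R 4.3.3; DESeq2 1.42.0 was an alternative. Condensate sums needed 10 wells and stage sums 2. All sums of a library come from the same plate, which pairs them; deviations of its Fb and condensate sums from their group means correlated with r from 0.0852 to 0.221 over 9230 genes. Intervals are exact (Clopper-Pearson, 95%) and cover counting error only. Thinning used 1 seeded draw (11). Each well was sorted to hold a single cell, and wells with more than 1 cell were not looked for. The fits were tested on simulated data.

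The members and lists were chosen with earlier results of these data known. Named genes were Mcm2 to Mcm7 and Pcna, called members (at most 12 a comparison, by adjusted p), up to 6 called genes of another list, the 10 genes most correlated with the members and 5 pairs. Roles were assigned, and Cdkn1a, Cdkn1c, Plk2, Ccnd1, Foxd1, Sox18, Sox2, Cxcr4, Rrm2b and further single members picked, after values were seen. Results of 2 genes are not reported here. The 12 bulk samples were not analysed here.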

Additional observations from a re-analysis of the deposited data

Results flagged for a closer look

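Of 71 groups of libraries checked for a value far from the others, 11 had one, where chance flags about 1 in 20. The share of UMIs in the members stood at 0.601% in DC1 of library 3, far above the other DC1 libraries. The same 2 wells gave the outlying DC1 values of Rrm1 (348.7 CPM) and Rrm2 (826.5 CPM). In DC0 of library 7, another pair of wells gave outlying values of Rrm1 (492.9 CPM) and Slbp (462.1 CPM). In DC2 of library 1, Mcm5, Rrm1 and Rrm2 each stood at 350.3 CPM, which there is 1 UMI of 2855. In DC2 of library 6, Mcm7 stood at 279.4 CPM, from 3 UMIs. In the summed condensate wells of library 3, Tyms stood at 60.19 CPM and Cdt1 at 67.72 CPM, far from the other libraries.

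The wells named for spike-ins entered no comparison and held member UMIs, a median of 0.295% of their gene UMIs over 9 libraries.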

How the results depend on the processing

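Of 534 refits of the 39 calls of a member in a comparison, 435 kept the call, 99 missed the threshold and 0 changed sign. Gins2 and Pcna kept their condensate calls in all 14 refits, and Mcm3, Mcm5, Pcna, Rrm1, Nasp and Usp1 kept theirs in DC2 against Fb in every refit that tested them. In condensate against Fb, 18 members were lower; 11 were with the shared run alone (9.71% of all genes) and 4 with thinned wells (7.47%). In DC0 against Fb, 3 of 41 were lower with no filter, where 6.68% of all genes were. In DC1 against Fb the 2 calls became 1 with DESeq2, 9 with no filter, 1 with no replicate block, 0 in the shared run, 1 in the other libraries and 1 with at least 5 wells in each sum, where 16.3%, 6.16%, 16.1%, 10.9%, 7.58% and 7.25% of all genes were lower. In DC2 against Fb the 10 became 37 with no filter, 3 (of 5 tested) in the other libraries and 26 with at least 5 wells, where 11.9%, 11.7% and 13.4% of all genes were lower. In DC2 against DC1 the 1 became 10 with no filter, 3 with no replicate block, 2 in the shared run, 0 in the other libraries and 0 with at least 5 wells, where at most 1.30% of all genes were lower. In DC2 against DC0 the 8 became 29 with no filter, 1 (of 5 tested) in the other libraries and 24 with at least 5 wells, where 1.89%, 1.40% and 4.99% of all genes were lower. The block changed no other count of members by over 1.5 times. No filter moved the median of all genes to -0.518, -0.473 and -0.55 for DC0, DC1 and DC2 against Fb. The causes were not tested, except that fewer or more genes were tested where the filter or the libraries changed.

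Leaving out 1 library gave 12 to 19 calls in condensate against Fb, 0 to 2 in DC1 against Fb, 8 to 11 in DC2 against Fb, 0 to 5 in DC2 against DC1 and 4 (without library 5) to 9 in DC2 against DC0, with 5 without library 8. The S-high share of DC2 wells in libraries 1 to 7 ran from 0% (without library 5) to 5.88%, and that of DC0 wells from 20% (without library 5) to 38.9%. The mean member share ran from 0.261% to 0.346% in DC0 and from 0.138% to 0.153% in DC2. Without Pcna, Tyms and Rrm2 the Fb share was 0.308%. With a threshold of 5 member UMIs the S-high shares were 72.9% in Fb, 44% in DC1 and 31.8% in DC2 of libraries 1 to 7, 47.9% in DC0 and 15.4% in DC2 of library 8 and 48.2% in DC1 of library 9. With 15 they were 28.8% in Fb and 0% in DC2 of libraries 1 to 7, and with 20 they were 17.9%, 0%, 17% in DC0 of library 8 and 10.5% in DC1 of library 9. Thinned to 5000 UMIs, DC2 of libraries 1 to 7 had 0%. The stage fit on thinned wells left no member to test.

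Depth limits the condensate sums of libraries 1 to 7, where a member often had under 10 UMIs. With 0 UMIs a sum allows up to 3. Both plates that hold most condensate wells lack Fb wells, so their values stand beside Fb wells of other plates only.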
